A study of Caenorhabditis elegans with 24 samples.

Results

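Adult Caenorhabditis elegans of the glp-1 strain and of wild-type N2 were compared after the same dose of UVC radiation, across all genes on the array. The comparison took in every array titled as irradiated glp-1, of which there were 4, and every array titled as irradiated N2, also 4, so that 8 of the 24 arrays of the series entered it. Untreated arrays of the same strains, 4 of each, were set beside them. The glp-1 animals carried a point mutation in glp-1 (strain JK1107), and N2 is the ancestral wild type. No transgene or driver is named for either strain. All groups were raised at 25°C and used as young adults, 24 h after the L4 stage at which the vulval crescent is seen. Irradiated animals received 50 J/m2 of UVC from a lamp with an emission peak at 254 nm, on plates without food. They were then fed and were frozen 3 h after exposure. Untreated animals came from the same experiments, and all groups shared the temperature, the age and the handling by rinsing. Whole nematodes were pooled in pellets, so each array reports a mixture of all tissues. The experiment was run 2 times, in 2007 and 2008, with 2 arrays per group each time.

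In the nematode gonad, GLP-1 is a Notch receptor on germ cells. Ligand from the distal tip cell, a cell of the somatic gonad, keeps the adjacent germ cells dividing, and cells that leave its reach enter meiosis and, in the adult hermaphrodite, form oocytes. Animals with reduced glp-1 activity at 25°C make few or no germ cells and live longer than wild type, whereas their somatic tissues form. UVC makes pyrimidine dimers in DNA, which nucleotide excision repair removes. The irradiated comparison therefore sets a body that is nearly all soma against one in which a large share of the nuclei are germ cells. In such whole-animal RNA, fewer cells of a type and less RNA per cell cannot be told apart.

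Levels are given as log2(intensity + 32) after quantile normalization, a scale whose lowest possible value is 5.00, and a difference is always irradiated glp-1 minus irradiated N2 in those log2 units. A difference against a group at the floor depends on the constant that was added. A gene was called where limma's adjusted p, taken over all 22548 probe sets, was under 0.05. In what follows a gene or list "rose" or "fell" in glp-1 relative to N2 only where it was called. The 2 strains also differed in the brightness of the deposited arrays. In 2007 between 5.85% and 6.11% of probe sets exceeded an intensity of 100 on the irradiated glp-1 arrays, against 18.4% to 19.5% on the irradiated N2 arrays, and in 2008 the shares were 47.6% to 47.7% against 51.8% to 58.0%. Normalization removes this gap. Its part in the results was not tested, and values under 4 other scalings are given where they turn a direction. The 2 irradiated glp-1 arrays of 2007 also matched each other least, with a Spearman correlation of 0.754 across probe sets, against 0.879 for N2 in that year and 0.959 and 0.968 in 2008. Whether the 2 arrays of a group and year stand for different cultures is not stated in the labels, so the spread behind each p-value may be technical.

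The label of the mutant was first set against the data. The glp-1 transcript itself read 5.52 and 5.16 in irradiated glp-1 in 2007 and 7.39 and 5.43 in 2008. In irradiated N2 it read 10.44 and 11.13 in 2007 and 10.66 and 10.90 in 2008. No array of one strain reached the range of the other, and the difference was -4.91 ± 0.40 (SE, n = 4 and 4, as for every difference below; adjusted p = 5.9e-09). A point mutation leaves the transcript in place, so this level does not check the genotype. Over the 140 measured genes in 5 lists of germ line markers (stem cell regulators, germ granules, meiosis, oocytes and eggshell), 127 fell, 1 rose and 12 did not pass the test. A further germ line list, of sperm genes, is not in this count: 4 of its 82 genes fell and 4 rose. Of these 140 genes, 2 lay at the floor on all 4 irradiated glp-1 arrays and 1 on all 4 irradiated N2 arrays. The list means were between 5.84 and 8.73 on the irradiated glp-1 arrays, against 9.20 to 12.26 on the irradiated N2 arrays. Such means do not show how many markers lay near the floor in glp-1.

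Across the array, 39.9% of probe sets (8986 of 22548) differed between the irradiated strains. Counting each of 17118 genes once by its brightest probe set, 21.9% rose (3746 genes) and 19.7% fell (3364 genes). The sizes were unequal: 1337 genes fell by 2 or more and 286 by 4 or more, against 818 and 13 that rose by as much. Over all 17118 genes, called or not, the 4 glp-1 arrays all lay above the 4 N2 arrays for 2632 genes. They all lay below them for 2639. The median difference over all genes was 0.15, and 99.3% of the called genes had the same sign in both years. The share of called probe sets that were higher depended on the scaling: it was 50.9% here, 18.9% with the deposited values unscaled, 45.2% with arrays centred on their medians and 61.9% with arrays scaled to their 75th percentile. The same scalings placed the median of all genes at -0.12, 0.28 and 0.22, so small differences are read against that shift.

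**Figure D1:**
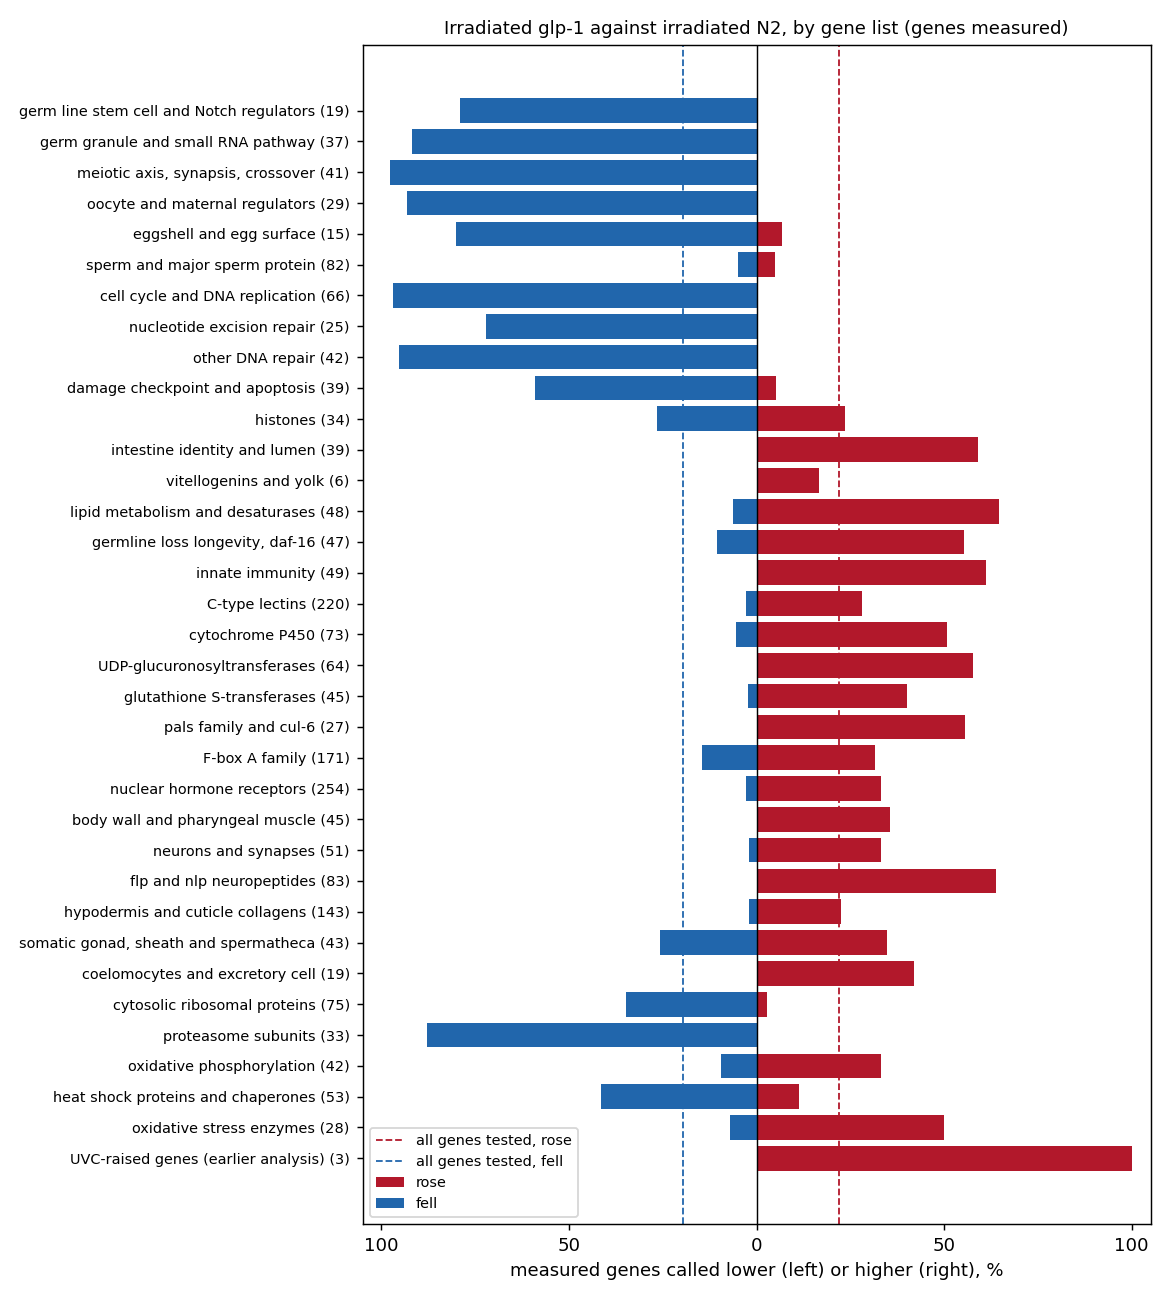
Share of measured genes in each of 35 gene lists that rose (right, red) or fell (left, blue) in irradiated glp-1 against irradiated N2, in percent of the genes measured (number in brackets). The dashed lines mark the shares over all genes, 21.9% and 19.7%. Lists of germ cell, cell cycle and DNA repair genes lie on the left and lists of intestinal, immune, detoxification and neuropeptide genes on the right.

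The 12 largest falls were between -6.69 and -6.11, with genes known from oocytes and the eggshell in the first 2 places. The gene rme-2 encodes the receptor by which oocytes take up yolk. Its level was 13.03 and 13.19 in irradiated N2 in 2007 and 13.01 and 13.02 in 2008, and in irradiated glp-1 it was 5.18 and 5.00 in 2007 and 8.37 and 6.95 in 2008. The glp-1 arrays thus spread widely while the N2 arrays nearly coincided, and the groups lay far apart, with a difference of -6.69 ± 0.48 (adjusted p = 9.5e-10). The deposited intensities behind these values were 3507, 3726, 15690 and 12680 in N2 and between -7.90 and 362.6 in glp-1. The gene cbd-1 encodes a chitin-binding protein of the eggshell. It read 12.72 to 12.97 in N2 and 5.00, 5.00, 8.65 and 7.17 in glp-1, a difference of -6.44 ± 0.50. Both genes were at or near the floor in the 2007 glp-1 arrays and above it in 2008. For C01G6.3 the N2 arrays read 12.13 to 12.54 and the glp-1 arrays 5.34, 5.00, 7.38 and 5.73 (difference -6.40 ± 0.33). W06B4.1 had the same level of 5.00, the floor, on all 4 glp-1 arrays and 11.03 to 11.90 in N2, and its difference of -6.39 ± 0.16 had the smallest adjusted p of all probe sets, 5.7e-16.

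**Figure D2:**
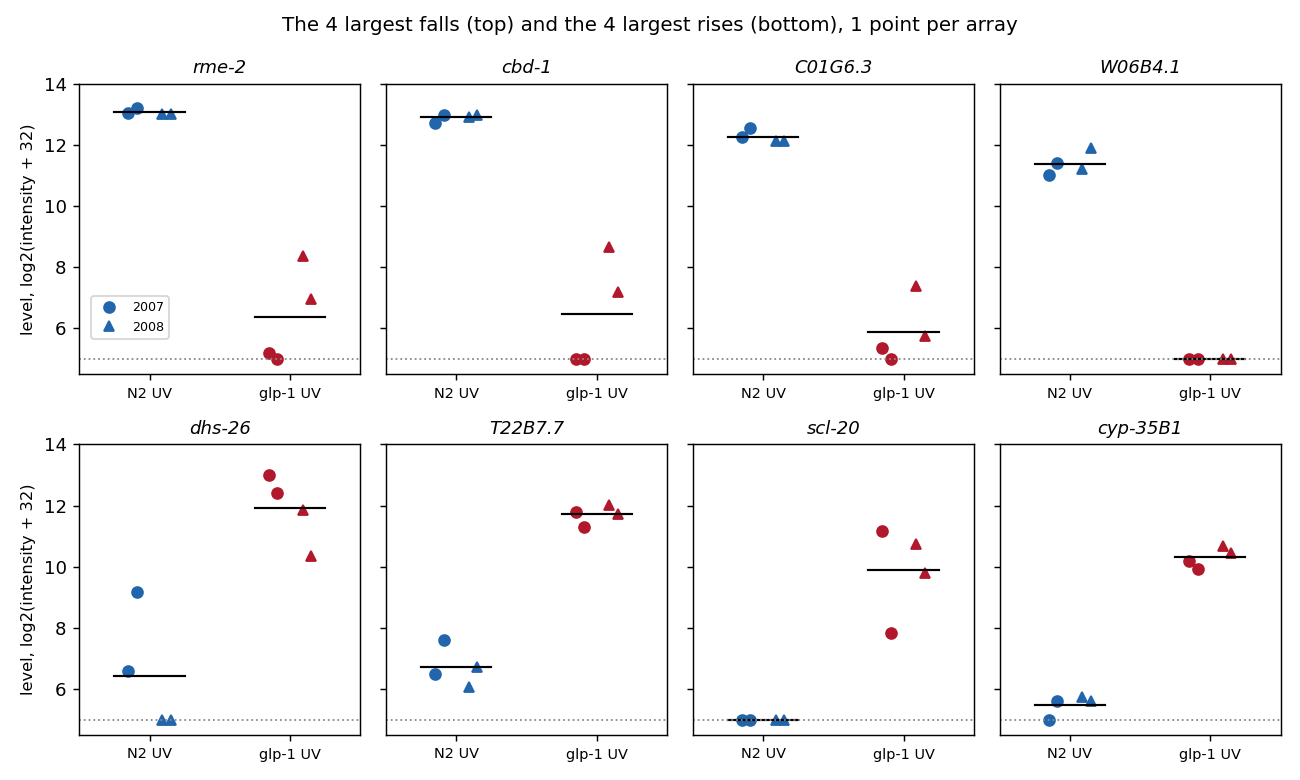
Level of the 4 genes that fell most (top) and the 4 that rose most (bottom) in irradiated glp-1, as log2(intensity + 32), 1 point per array, with circles for 2007 and triangles for 2008. Bars are group means and the dotted line is the floor of 5.00. The strains do not overlap in any of the 8 genes, and the glp-1 arrays of 2008 lie above those of 2007 for rme-2 and cbd-1.

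The next 8 falls were between -6.36 and -6.11. They included cpb-3, a member of the CPEB family of RNA-binding proteins (-6.36 ± 0.43), sip-1, a small heat shock protein of oocytes and embryos (-6.27 ± 0.49), the polo-like kinase gene plk-3 (-6.23 ± 0.44) and nasp-2 (-6.15 ± 0.46), which is named for a histone chaperone. The others were T22D1.5, fbxa-215, clec-87 and clec-88. The last 2 of these belong to C-type lectins, a family otherwise known for defence and in which most called members rose.

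Regulators of germ line stem cells fell with their receptor. Of 19 measured genes 15 fell, 0 rose, and the list median was -2.04 against 0.15 over all genes. The largest fall was in puf-8, a PUF-family RNA-binding protein (-5.42 ± 0.49), followed by gld-3 (-5.16 ± 0.36), a partner of the cytoplasmic poly(A) polymerase GLD-2. The Notch target lst-1 fell by 3.88 and the stem cell maintenance genes fbf-1 and fbf-2 by 3.40 and 3.08. The transcription factor of the Notch pathway, lag-1, which also acts in the soma, fell by 1.07, from 11.30 in N2 to 10.24 in glp-1. Not passing the test were sygl-1 (0.19), fog-3 (0.20), atx-2 (0.18, and -0.74 and called with the deposited values) and sel-8, which lay at the floor in both strains. The first of these, sygl-1, a second Notch target, was near the floor in N2 as well (5.19), so this probe set could not show a loss.

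Germ granules are the RNA-rich bodies beside germ cell nuclei in which small RNA pathways work. Of 37 measured genes of granules and small RNA pathways 34 fell and 0 rose, with a median of -2.77. The granule assembly factor deps-1 read 11.73, 11.37, 11.83 and 11.85 in N2 and 5.52, 5.78, 6.93 and 5.59 in glp-1 (difference -5.74 ± 0.22), and the Argonaute gene wago-1 fell by 5.67. The RNA-dependent RNA polymerase gene ego-1 fell by 3.10. The 3 members that did not pass were cid-1 (0.06), alg-3 (-0.88) and alg-4 (-0.52), of which the last 2 encode Argonautes of sperm development. Second probe sets of cid-1 (-1.17) and alg-4 (-1.14) were called lower. Meiotic genes moved as uniformly: 40 of 41 fell, 0 rose, and the median was -3.15. The axis protein gene htp-3 read 10.62, 10.27, 10.78 and 10.90 in N2 and 5.04, 5.21, 6.02 and 5.00 in glp-1 (-5.33 ± 0.19), its paralogue htp-1 fell by 5.09 and the synaptonemal complex gene syp-1 by 4.03. The remaining gene, chk-2, a kinase of meiotic entry, was at -0.04. It was dim in both strains, with deposited intensities of at most 42.9 in irradiated N2 and 5.35 in irradiated glp-1.

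Oocyte genes had a median of -4.50 and eggshell genes one of -4.81. Of 29 oocyte and maternal regulators 27 fell and 0 rose. The maturation regulator oma-1 read 10.32, 10.56, 11.38 and 11.72 in N2 and 5.00, 5.00, 6.32 and 5.00 in glp-1 (-5.67 ± 0.26), and its paralogue oma-2 fell by 5.52. The translational regulator lin-41 fell by 3.61, although a dimmer probe set for it was at -0.79 and did not pass. The polarity genes par-1 (0.29) and par-6 (0.17), which epithelia use as well, did not pass. Of 15 eggshell genes 12 fell, among them egg-1 (-5.79 ± 0.28), a surface receptor needed for fertilization, the chitin synthase gene chs-1 (-5.47 ± 0.35), and the eggshell proteoglycan genes cpg-1 and cpg-2 (-4.72 and -5.59). The permeability barrier genes perm-2, perm-4 and perm-5 did not follow the list. Levels of perm-2 and perm-4 were near 13 in both strains, with differences of 0.44 (adjusted p = 0.022) and 0.27 (adjusted p = 0.08), and perm-5 was at -0.11. For perm-4 a pair of dimmer probe sets was called higher, at 1.73 and 0.71. The rise of perm-2 passed the test here but lost it in 9 of 24 alternatives. Among the irradiated glp-1 arrays, the first of 2008 had the highest mean level over the oocyte list (7.72, with the others between 6.67 and 7.09) and over the eggshell list (8.73, with the others between 7.44 and 7.96). Without that array 27 oocyte genes and 12 eggshell genes still fell.

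Few sperm genes were called in either direction. Their list mean in irradiated N2 was 7.6 and 6.8 in 2007, when the median strain difference was -0.64. In 2008 it was 5.6 and 5.8, near the floor, where a loss could hardly show. C. elegans hermaphrodites make sperm as larvae and switch to oocytes, so adults store sperm without making more. Of 82 measured sperm genes 4 rose and 4 fell, both far below the shares over all genes, and the median was -0.10. Those that fell were spe-5 (-3.34), spe-44 (-2.86), spe-39 (-1.63) and spe-15 (-1.05), and those that rose were ssp-10 (2.13), ssp-37 (1.21), spe-26 (1.21) and spe-40 (0.86), of which spe-40 lost its call in 16 of 24 alternatives. None of the 23 genes for major sperm protein, the cytoskeletal protein of nematode sperm, passed the test. Their median level in irradiated N2 was 10.0 and 8.72 in 2007 and 5.59 and 6.09 in 2008, whereas in irradiated glp-1 it was 6.57 and 8.63 in 2007 and 6.94 and 6.95 in 2008. The strain difference over these genes was thus -1.81 in 2007 and 1.05 in 2008, with N2 changing between years more than glp-1. These genes are near-identical copies, so their probe sets may share hybridization, and the same holds for the paralogue pairs egg-1 and egg-2 and for the core histones.

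Genes of dividing cells fell as far as those of meiosis. Of 66 genes of the cell cycle and DNA replication 64 fell and 0 rose, with a median of -3.76. The mitotic kinase gene cdk-1 read 11.13, 11.35, 11.94 and 12.15 in N2 and 6.72, 6.02, 7.68 and 6.44 in glp-1 (-4.93 ± 0.23). The primase subunit gene pri-1 fell by 5.08, the kinetochore gene him-10 by 5.12 and pcn-1, which encodes the sliding clamp of DNA replication, by 5.29. The 2 genes that did not pass were cyd-1 (-1.01) and cdk-2 (0.13). The deposited intensities of cdk-2 in irradiated N2 were between -69.95 and 0.80, so this probe set could not show a loss. Those of cyd-1 were 8.42, 5.06, 526.6 and 216.3 in irradiated N2, against 7.01, 2.63, 4.59 and -8.31 in irradiated glp-1. Histone genes split, with 8 rising and 9 falling of 34, and their median of -0.07 changed sign with the scaling (0.04 at the 75th percentile, -0.59 as deposited). The linker histone genes hil-5 and hil-2 fell by 6.06 and 4.63 and the variant his-74 by 4.13, while the core histone genes his-35 and his-3 rose by 1.47 and 1.25.

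The genes that act on UV damage were lower in irradiated glp-1. In nucleotide excision repair 18 of 25 genes fell and 0 rose, with a median of -1.42. The damage verification gene xpa-1 read 8.92, 9.34, 9.90 and 10.07 in N2 and 5.00, 7.41, 7.25 and 7.2 in glp-1 (-2.84 ± 0.40, adjusted p = 8.1e-06), so 1 glp-1 array of 2007 was at the floor. The incision nuclease genes xpf-1, ercc-1 and xpg-1 fell by 2.18, 2.1 and 1.42. Some factors shared with replication fell further than these nucleases, with pcn-1 at -5.29, lig-1 at -4.21, rpa-2 at -2.87 and rpa-1 at -2.3. Another RPA subunit gene, rpa-4, was the highest of the list at 0.59 and did not pass. Of the subunits of TFIIH, the helicase complex that opens DNA around a lesion and also serves transcription, gtf-2H1 (-1.63), gtf-2H2C (-1.37), gtf-2H3 (-1.13), cdk-7 (-1.80) and xpb-1 (-0.84) fell. Differences for mnat-1 (0.05), gtf-2H4 (-0.51), gtf-2H5 (-0.79) and cyh-1 (-0.56) did not pass. Damage recognition was mixed. The gene csb-1, whose product detects stalled RNA polymerase, fell by 0.70, and ddb-1 and rad-23 were also among those that fell. In contrast, csa-1 (-0.36) and xpc-1 (-1.44, adjusted p = 0.12) did not pass. The level of xpc-1 was 5.66 and 6.24 in N2 in 2007 and 9.05 and 9.39 in 2008, against 5.69, 5.83, 6.23 and 6.84 in glp-1, so the strains differed by -0.19 in 2007, near the floor, and by -2.68 in 2008.

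Other repair genes fell more, 40 of 42 with a median of -2.69 and 0 rising. The translesion polymerase gene polh-1, whose product copies past UV lesions, read 11.08, 11.08, 9.77 and 9.86 in N2 and 5.00, 5.14, 5.48 and 5.12 in glp-1 (-5.26 ± 0.31, adjusted p = 5.7e-11). The mismatch repair gene msh-2 fell by 4.18 and the nuclease gene slx-1 by 3.51, while fncm-1 (-0.64) and rip-1 (0.24) did not pass. In the list of checkpoint and apoptosis genes 23 of 39 fell and 2 rose, with a median of -1.19. The p53 homologue cep-1 read 9.37, 9.57, 10.07 and 10.37 in N2 and 6.19, 7.21, 5.99 and 6.32 in glp-1 (-3.42 ± 0.25), although a second, dimmer probe set for it was at -0.42 and did not pass. The checkpoint gene hpr-17 fell by 3.80, and the core death genes ced-4, ced-3 and ced-9 fell by 2.47, 2.2 and 1.19. Dimmer probe sets of ced-3 (-0.43) and ced-9 (-0.50) did not pass.

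Of the 2 cell death activators that CEP-1 induces in irradiated germ cells, egl-1 was lower in glp-1 and ced-13 was not called. The level of egl-1 was 8.07, 8.25, 7.92 and 7.24 in N2 and 7.52, 5.76, 5.57 and 5.64 in glp-1, so 1 glp-1 array lay within the N2 range. The difference was -1.74 ± 0.54 (adjusted p = 0.014), and without the second irradiated glp-1 array of 2007 it was -1.48 with an adjusted p of 0.052. In untreated animals the strain difference of egl-1 was -0.38. The level of ced-13 was close to the floor in both strains (5.81 ± 0.67 and 5.97 ± 0.48, SD), at a difference of -0.16. The 2 genes that rose against this list were nuc-1, a nuclease that digests the DNA of dead cells (1.92 ± 0.23), and crn-2 (0.97, adjusted p = 0.032), which lost its call in 12 of 24 alternatives and without any of 6 single arrays.

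The 12 largest rises were between 5.47 and 4.03. The gene dhs-26, named for a short-chain dehydrogenase, read 13.01 and 12.41 in irradiated glp-1 in 2007 and 11.84 and 10.36 in 2008. In N2 it read 6.58 and 9.17 in 2007 and 5.00 and 5.00 in 2008, a difference of 5.47 ± 0.82 (adjusted p = 1.9e-05), so both strains were brighter in 2007. T22B7.7 read 11.31 to 12.03 in glp-1 and 6.07 to 7.61 in N2 (4.99 ± 0.55). The secreted protein gene scl-20 lay at the floor on all 4 N2 arrays and read 11.17, 7.82, 10.76 and 9.78 in glp-1 (4.88 ± 0.51). The cytochrome P450 gene cyp-35B1 was the most even of the 4, with 10.17, 9.93, 10.66 and 10.45 in glp-1 and 5.00, 5.62, 5.73 and 5.62 in N2 (4.81 ± 0.18, adjusted p = 1.2e-13). The following 8 rises were between 4.34 and 4.03. They included the C-type lectin genes clec-60 and clec-61, the acid sphingomyelinase gene asm-3, pals-6, the metallothionein gene mtl-1, the ferritin gene ftn-1, the infection response gene irg-5 and F44A2.7. For clec-61 alone among the 12 the arrays of the strains overlapped.

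Intestinal genes rose. Of 39 markers of intestinal identity and lumen 23 rose and 0 fell, with a median of 0.79, and the count was 9 with 2 falling in the deposited values. The stress metallothionein mtl-1 read 11.97, 11.33, 11.23 and 11.76 in glp-1 and 5.91, 8.12, 8.04 and 7.76 in N2 (4.11 ± 0.45), and the lipid-binding protein gene far-3 rose by 3.51. Yolk protein genes did not follow. The 5 vitellogenin genes vit-1, vit-2, vit-4, vit-5 and vit-6, whose products the intestine exports to oocytes, were among the brightest on the array (means between 12.5 and 14) in both strains. Their differences of -0.08 to 0.37 did not pass. Under scaling to the 75th percentile all 5 were 0.91 to 1.54 higher in glp-1 and called, and vit-2 was also called higher with the 2008 arrays alone (0.31) and, like vit-1 (0.58), with array weights (0.24). The level of vit-5 was 13.93 to 14 on all 8 arrays, at the upper end of the scale, where a difference may not show. The yolk secretion gene dsc-4, a lipid transfer protein, rose by 1.51 ± 0.26. Vitellogenin paralogues are near identical, and a second probe set for vit-4 was 2.25 higher in glp-1.

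Lipid metabolism genes rose in 31 of 48 cases and fell in 3, with a median of 0.89. The triglyceride synthesis gene dgat-2 read 10.33, 9.89, 11.29 and 11.78 in glp-1 and 8.27, 7.97, 8.68 and 8.82 in N2 (2.39 ± 0.26). The SREBP homologue sbp-1 rose by 1.99 and the lipase-like gene lipl-7 by 1.51, whereas the adipose triglyceride lipase gene atgl-1 (-1.39), nhr-66 (-0.72) and cpt-6 (-1.84) fell. Among 47 genes tied to the long life of germline-less animals or to the FOXO factor DAF-16, 26 rose and 5 fell (median 1.17). The insulin-like peptide gene ins-7 read 10.37, 10.06, 10.11 and 10.14 in glp-1 and 7.47, 7.95, 7.82 and 7.94 in N2 (2.38 ± 0.21). Those that fell included age-1, a phosphatidylinositol kinase gene (-2.21), sip-1, lea-1 (-3.01) and mxl-2 (-1.08). Other probe sets of lea-1 disagreed, with 1 at -4.15 and 2 called higher, at 0.88 and 0.38. Part of this list was drawn from earlier work on glp-1 animals, so its direction is not independent of the strain.

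Immune genes rose in 30 of 49 cases with 0 falls (median 1.52). They spanned the p38 kinase pathway gene sek-1 (1.24 ± 0.16), the infection response genes irg-5 and irg-7 (4.03 and 1.57) and the saposin-like antimicrobial gene spp-1, which read 12.47, 11.24, 11.75 and 11.90 in glp-1 and 9.12, 10.00, 9.43 and 9.53 in N2 (2.32 ± 0.31). Detoxification families moved the same way, with 37 of 73 cytochrome P450 genes, 37 of 64 UDP-glucuronosyltransferase genes and 18 of 45 glutathione S-transferase genes rising, and 4, 0 and 1 falling. Their medians were 1.17, 1.42 and 0.89. Among the largest were ugt-6 (2.53 ± 0.23), cyp-37A1 (2.39 ± 0.20) and gst-29 (2.76 ± 0.28). The 4 P450 genes that fell were cyp-31A5 (-3.76), cyp-31A2 (-3.60), cyp-31A3 (-3.13) and cyp-13B2 (-2.44). The cyp-31A genes are known for making lipids of the eggshell, and their sequences are close enough that their probe sets may share signal. Of 27 pals and related genes, which respond to intracellular infection, 15 rose and 0 fell, led by pals-6 (4.12 ± 0.30), skr-4 (2.87 ± 0.27) and pals-23 (2.31 ± 0.40).

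Large gene families rose in shares closer to the 21.9% over all genes than the immune and detoxification lists. They fell less often than the 19.7% over all genes. Of 220 C-type lectin genes 62 rose (28.2%) and 6 fell (2.73%), with a median of 0.34. Of 254 nuclear hormone receptor genes 84 rose (33.1%) and 7 fell (2.76%), with a median of 0.47. Of 171 F-box A genes 54 rose (31.6%) and 25 fell (14.6%), with a median of 0.33. With the deposited values 23 F-box A genes rose and 30 fell. Members that fell were far from the family median: clec-87 and clec-88 were at -6.11, clec-91 at -5.84, fbxa-215 at -6.15, fbxa-101 at -3.89, nhr-2 at -3.54 and nhr-23 at -2.16. The other, dimmer probe sets of nhr-2 (0.45, -0.28 and -1.12) and of nhr-23 (-0.06) did not pass. Members that rose included clec-62 (2.29 ± 0.20), nhr-212 (2.29 ± 0.25) and nhr-69 (1.82 ± 0.17).

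Lists of muscle, neuronal and neuropeptide genes had more rises than falls. Muscle genes rose in 16 of 45 cases with 0 falls (median 0.75), but with the deposited values the median was -0.10, with 1 rising and 3 falling, and without the second irradiated N2 array of 2007 the count was 9. The alpha-actinin gene atn-1 rose by 1.69 ± 0.22 and the troponin I gene tni-3 by 1.91 ± 0.45. Neuronal and synaptic genes rose in 17 of 51 cases with 1 fall (median 0.72, and -0.18 with the deposited values). The amine synthesis gene bas-1 rose by 1.94 and the neuropeptide processing gene sbt-1 by 1.86. The single fall was tdc-1, a tyrosine decarboxylase of a few neurons and of the gonadal sheath, which read 10.27, 10.76, 10.43 and 10.37 in N2 and 5.13, 5.04, 6.96 and 6.72 in glp-1 (-4.49 ± 0.32). Of its other probe sets 1 was at -4.57 and 1, near the floor, at 0.11. Of 83 neuropeptide genes 53 rose and 0 fell (median 1.33), a larger share than in the list of neuronal genes. The intestinal neuropeptide gene nlp-40 read 11.27, 11.11, 11.41 and 11.42 in glp-1 and 9.65, 9.40, 9.37 and 9.33 in N2 (1.86 ± 0.13), and nlp-80 rose by 2.56.

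Among collagen genes 32 rose, or 22.4% of those measured, and 3 fell (median 0.42), close to the 21.9% over all genes. The count rested on 2008: 0 were called in 2007 alone, and it was 19 without the first irradiated glp-1 array of 2008, 16 without the first irradiated N2 array of 2008 and 17 without the second. The cuticle collagen gene col-143 read 11.92, 12.34, 12.23 and 12.34 in glp-1 and 11.57, 10.63, 9.56 and 10.33 in N2 (1.68 ± 0.30). The falls were dpy-17 (-3.61), dpy-14 (-3.32) and col-121 (-2.17), and the levels of all 3 overlapped between strains. The calls of col-121 and dpy-14 were lost in 8 and 7 of 24 alternatives. Genes of the somatic gonad split, with 15 of 43 rising and 11 falling, and their median of 0.45 became -0.13 with the deposited values. The inositol trisphosphate receptor gene itr-1, which acts in the intestine and the sheath, rose by 2.08 ± 0.19. The innexin gene inx-14, which encodes the germ cell side of the junctions with the sheath, read 10.07, 10.78, 10.64 and 10.59 in N2 and 5.49, 6.47, 6.35 and 6.10 in glp-1 (-4.42 ± 0.27), and the Eph receptor gene vab-1 fell by 3.56. A dimmer probe set of vab-1 was at -1.255 and did not pass. Of 19 genes of coelomocytes and the excretory cell 8 rose and 0 fell (median 0.96), among them the coelomocyte gene cup-4 (2.3 ± 0.35) and exc-5 (1.59 ± 0.40).

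Housekeeping complexes did not move as one. Proteasome genes fell in 29 of 33 cases with 0 rises (median -0.86), among them rpn-1 (-1.35 ± 0.16), rpn-8 (-1.06) and rpt-3 (-0.99). Of 75 genes for cytosolic ribosomal proteins 26 fell and 2 rose, with a median of -0.29. This direction depended on the scaling, since 52 rose and 2 fell at the 75th percentile, and the count was 14 without the second irradiated glp-1 array of 2008. Under every scaling the gene rpl-11.1 was far lower in glp-1, where it read 9.17, 9.79, 10.10 and 9.25 against 13 to 13.08 in N2 (-3.46 ± 0.17). Its paralogue rpl-11.2 read 12.33, 12.47, 12.53 and 12.01 in glp-1 and 11.81, 10.18, 11.76 and 11.21 in N2, a difference of 1.09 ± 0.36 (adjusted p = 0.018) that lost its call in 8 of 24 alternatives. The pair rpl-23A.2 and rpl-23A.1 split likewise, at -1.32 ± 0.14 and 1.03 ± 0.30.

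In oxidative phosphorylation 14 of 42 genes rose and 4 fell (median 0.25), a split that was 0 and 11 with the deposited values (median -0.56) and 0 and 3 with median centring (median -0.17). The number that rose was 7 without the second irradiated glp-1 array of 2007 and 8 without the second irradiated N2 array of 2008. The falls were ucr-2.3 (-4.70 ± 0.34), nduf-2.2 (-4.20 ± 0.58), asb-1 (-2.65 ± 0.17) and atp-2 (-0.35), of which asb-1 encodes a subunit of the ATP synthase known from the germ line. The call of atp-2 was lost or turned in 14 of 24 alternatives. Chaperone genes fell in 22 of 53 cases and rose in 6 (median -0.36). The falls included the DnaJ gene dnj-17 (-2.24 ± 0.22), and the rises included the small heat shock genes hsp-25 (1.75 ± 0.15) and hsp-43 (1.25 ± 0.19). Oxidative stress enzymes rose in 14 of 28 cases and fell in 2 (median 0.51, but -0.27 with the deposited values). The ferritin genes ftn-1 and ftn-2 rose by 4.06 and 1.23, and the mitochondrial genes trxr-2 and sod-2 fell by 1.79 and 0.72. The call for sod-2 was lost in 7 of 24 alternatives.

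The chromosomes took unequal shares of the 2 directions. Of 2350 measured genes on the X chromosome 35% rose and 5.23% fell, against 19.8% and 22% of 14717 autosomal genes. Chromosomes I and III had the largest shares that fell, 31.5% and 31.1%, and chromosome V had fewer (12%). The X chromosome held 13.8% of measured genes, 22% of those that rose and 3.66% of those that fell. Genes were also cut into 3 equal classes by their mean level over all arrays, those of N2 included. A high level in N2 can place a gene in the brightest class, so the classes are not independent of the strain difference. In the brightest class 68.4% of 715 X-linked genes rose and 6.57% fell, against 27.9% and 46.8% of 4976 autosomal genes. The split between X-linked and autosomal genes was thus wide in that class. It was narrower in the middle class, where 31.5% of X-linked and 26% of autosomal genes rose and 7.4% and 17.7% fell. In the dimmest class 5.56% and 5.78% rose, and 0.997% and 1.26% fell. In the deposited values the shares that rose drew together, 9.66% on the X and 6.96% on autosomes, while those that fell stayed apart, 12% against 30.5%. The few X-linked genes with large falls, chosen after their values were seen, included R04D3.2 (-4.33 ± 0.20), the innexin genes inx-3 (-4.33) and inx-2 (-4.19) and the germ granule gene meg-1 (-4.04). Germ cells are known to keep the X chromosome largely silent, and of the 140 germ line markers 4 were X-linked. Chromosomes were taken from the RefSeq gene table for the WBcel235 assembly, which placed 17075 of 17118 genes.

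**Figure D3:**
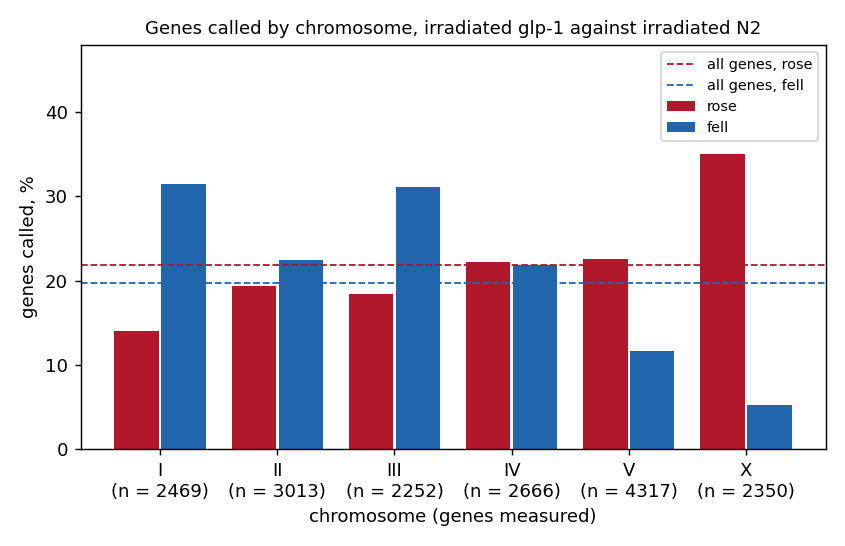
Share of measured genes on each chromosome that rose (red) or fell (blue) in irradiated glp-1 against irradiated N2, in percent, with the number of genes measured in brackets. Dashed lines are the shares over all genes. The X chromosome has the largest share that rose, 35%, and the smallest that fell, 5.23%, and chromosomes I and III have the largest shares that fell.

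The same strains differed in much the same way without radiation. In untreated animals 39.7% of genes (6797) were called, 3612 higher and 3185 lower in glp-1. Of the genes that rose after UVC 78.6% also rose in untreated glp-1, which is 81.6% of the untreated rises, and of those that fell after UVC 85.4% fell untreated, which is 90.2% of the untreated falls. These comparisons share no arrays. Across genes, which are not independent replicates, the 2 differences had a Pearson correlation of 0.93 and a Spearman correlation of 0.86. A further 1289 genes were called after UVC only, but being called in one condition and not in the other does not show a difference.

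The difference between the irradiated and the untreated strain difference was tested for every probe set, and 0% passed (0 of 22548, smallest adjusted p 0.995). At an unadjusted p under 0.05 there were 934, and the median standard error was 0.46. Named by smallest p, C54C8.3 was lower in glp-1 after UVC (5.00, 5.29, 5.00 and 5.00 against 5.80, 5.83, 5.58 and 6.26) and higher without it, at -0.79 and 0.91, with all levels within 1.5 units of the floor. F31F7.2 stood at 0.29 and 2.69 in irradiated and untreated animals, K08D8.4 at 1.76 and 3.90, the F-box gene fbxc-50 at -4.23 and -5.35 (a second probe set was called higher after UVC, at 1.36), and grl-24 at 0.70 and -0.30. The meiotic entry regulator gld-1 was 3.66 lower after UVC and 5.63 lower without it, and its level in irradiated glp-1 (8.69, 9.05, 7.45 and 6.71) lay above that in untreated glp-1 (5.28, 6.68, 5.31 and 6.21), with N2 between 11.29 and 11.81 throughout. A dimmer probe set of gld-1 was at -1.02 after UVC and did not pass. F46C5.1 was called in opposite directions, at 1.25 and -1.25, and lost its irradiated call in 14 of 24 alternatives.

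An earlier analysis of these arrays had named catp-3, fbxa-163 and F54B8.4 as raised by UVC, and since they were chosen on these samples they are no independent evidence. All 3 were higher in irradiated glp-1 than in irradiated N2: catp-3, a P-type ATPase, by 1.71 ± 0.38, fbxa-163 by 2.06 ± 0.33 and F54B8.4 by 1.51 ± 0.46, whose call was lost in 7 of 24 alternatives. In untreated animals the gaps were 3.77, 3.37 and 3.61. The level of catp-3 was 11.75, 11.38, 12.27 and 12.51 in irradiated and 12.31, 12.14, 11.14 and 11.64 in untreated glp-1. In N2 it was 10.92, 10.49, 9.50 and 10.15 irradiated and 7.95, 8.76, 7.32 and 8.12 untreated. The smaller gap after UVC thus came with a higher level in irradiated N2 (2.23, adjusted p = 0.14) and a difference of 0.17 in glp-1, neither of which passed the test over all probe sets.

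**Figure D4:**
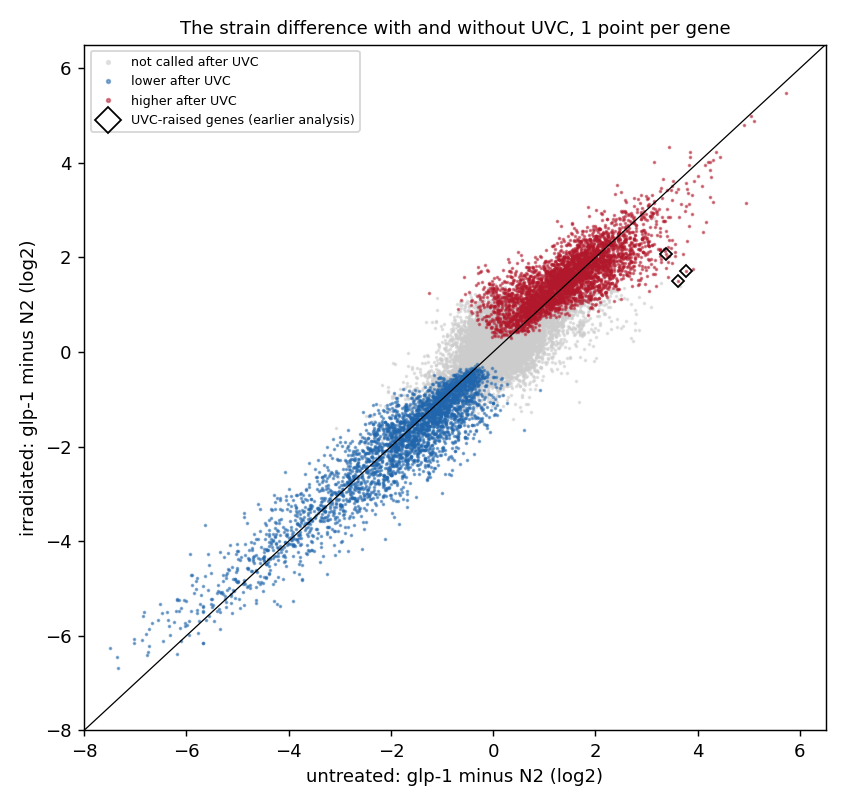
Strain difference of each of 17118 genes after UVC (vertical) against that in untreated animals (horizontal), both as glp-1 minus N2 in log2 units, with red for genes higher and blue for genes lower after UVC. Points lie along the line of equality (Pearson correlation 0.93), and the diamonds of catp-3, fbxa-163 and F54B8.4 lie below it.

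The 2 years gave the same picture in outline and differed in a small share of genes. A strain difference that changed between years was called for 3.33% of probe sets (751, of which the signed value of 2008 minus 2007 was above 0 for 422 and below 0 for 329), and across genes the differences of the years correlated at 0.767. This count depended strongly on the processing: it was between 257 and 1889 with single arrays left out and reached 9297 with median-centred arrays. Without either irradiated glp-1 array of 2007 it was 1889 and 1800, without either of 2008 it was 322 and 321, and without the first or second irradiated N2 array of 2008 it was 257 and 264. The medians of the lists of stem cell, germ granule, meiotic, oocyte, eggshell, cell cycle and repair genes had the same sign in both years and differed by at most 0.58. Those of sperm genes (-0.64 and 0.31) and histones (-0.21 and 0.41) changed sign. The oocyte regulator pos-1 showed how a large fall can differ in size, with glp-1 levels of 5.00 and 5.04 in 2007 and 9.40 and 7.92 in 2008 against 12.44 to 12.88 in N2. The mitochondrial gene nduf-2.2 did likewise (differences of -6.18 and -2.23). The strain difference reversed for parg-2, a poly(ADP-ribose) glycohydrolase, from -2.16 to 3.27, and for rig-5, from 2.39 to -2.41. The infection response gene irg-6 (5.67 in 2007, 0.00 in 2008) and F55G11.6 (5.60 and 0.25) were higher in glp-1 in 2007 alone: irg-6 read 10.78 and 12.09 on the glp-1 arrays of 2007 and 5.00 on both of 2008.

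**Figure D5:**
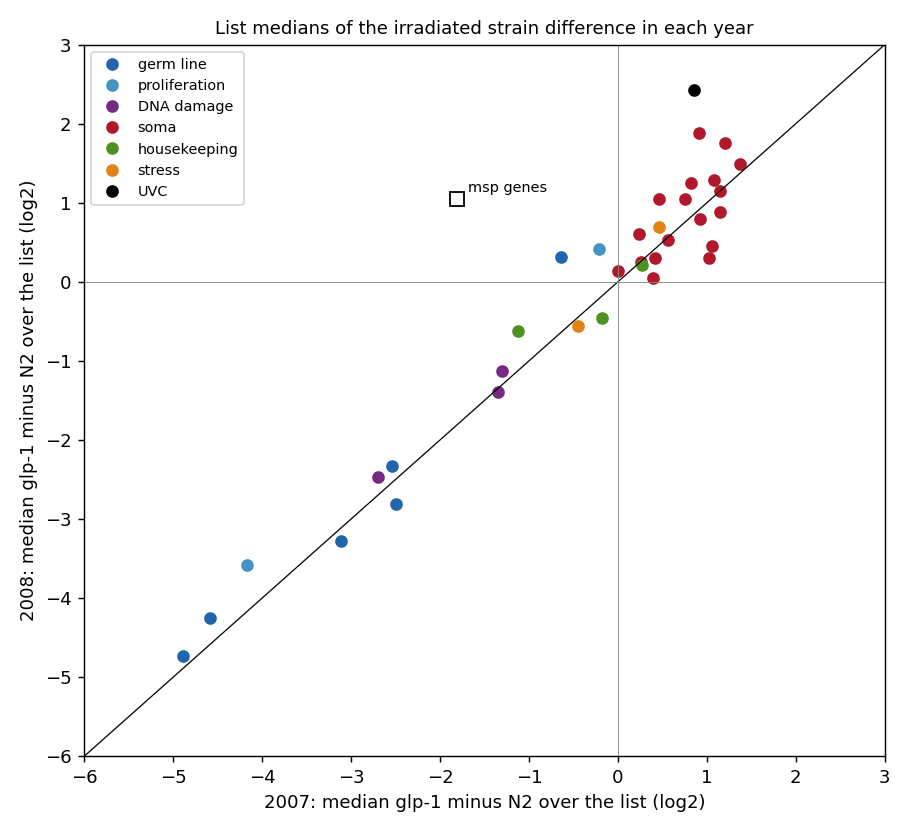
Median strain difference after UVC over each of the 35 gene lists in 2007 (horizontal) and 2008 (vertical), in log2 units, coloured by class, with the line of equality. Most germ line, cell cycle and DNA damage lists lie at the lower left near the line, the sperm and histone lists do not, and the open square for the major sperm protein genes lies far from it, at -1.81 and 1.05.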

How the data were processed

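Whole-animal RNA was labelled with biotin and hybridized to single-colour Affymetrix arrays. Per the labels' protocols, 500 pg of RNA was amplified in 2007 and 100 ng in 2008, over 2 rounds in each year, with different kits. The authors deposited linear intensity values for 22548 probe sets on 24 arrays. How background, probe summary and scaling were handled is not stated in those protocols, some values lie below 0, and array medians of the irradiated groups ran from 4.24 to 191, so the arrays had not been equalized.

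Here the values of all 24 arrays were quantile normalized before taking logs, negative ones were raised to 0, and levels are log2(value + 32). After normalization 15.5% of values were at or below 0. In limma 3.58.1 (R 4.3.3) a mean per strain and treatment and a year term were fitted to all 24 arrays (17 residual degrees of freedom), with two-sided moderated p-values adjusted by the Benjamini-Hochberg method over all probe sets and a threshold of 0.05. The difference between years was tested with a mean per strain, treatment and year. The fit was tested on simulated data. The number of arrays, 4 per group, limits the precision, and values after ± are standard errors unless marked SD.

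Gene symbols came from the platform annotation, checked through gene IDs against RefSeq: 20766 probe sets had 1 gene, 887 several and 895 none. Of the probe sets with 1 gene, the brightest stood for that gene. Dimmer probe sets of a called gene passed in some cases and not in others, among the latter dgat-2 (0.30), sek-1 (0.84), cup-4 (0.87) and col-121 (-0.99). Replicate numbers were not used to pair arrays in the main fit. Deviations of same-numbered irradiated glp-1 and N2 arrays correlated at -0.026 in 2007 and 0.088 in 2008. With 2 arrays per group and year, these values cannot show whether the numbers mark shared cultures or runs.

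The comparison, the gene lists and the markers were chosen with earlier results of these data known. Genes were named by a rule: the 12 largest rises and falls among called genes whose sign held in each year, the 3 members of each list with the smallest p and up to 2 called against its majority, members of lists of 25 or fewer, glp-1, xpa-1 and the genes of CEP-1 apoptosis, up to 8 genes per further contrast, and the 5 brightest called in each direction and 5 bright genes with the smallest difference. Genes named beyond it, as exceptions within a list, on the X chromosome or as paralogues, were chosen after their values were seen. Promoter sequences were not used here. A result of 1 gene that the rule names is not reported here.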

Additional observations from a re-analysis of the deposited data

Results flagged for a closer look

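For the named genes and the list means, an array was picked out within an irradiated group of 4 where its gap to the nearest other array, as a share of the group's range, was above Dixon's critical value. Of 489 groups with any spread 32 met this. The usual chance rate of about 1 group in 20 holds for independent, normally spread values. It does not apply here, since levels stop at the floor and each group mixes both years. The first irradiated glp-1 array of 2007 accounted for 8, the second of 2007 for 6, the first of 2008 for 5 and the second of 2008 for 2. The irradiated N2 arrays of 2007 accounted for 5 and 6.

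Several of these touch genes of the germ line and of UV damage. The first glp-1 array of 2007 was highest for egl-1 (7.52, others 5.57 to 5.76) and fog-3 (8.53, others 5.84 to 6.08) and lowest for xpa-1 (5.00, others 7.2 to 7.41). It was also low for age-1 (6.43), par-1 (5.1), F31F7.2 (5.00) and the mean of somatic gonad genes (7.71), and high for his-35 (10.85). The first glp-1 array of 2008 was highest for glp-1 itself (7.39, others 5.16 to 5.52), cpb-3 (7.01, others 5.04 to 5.21), oma-1 (6.32), hil-2 (6.03) and cyh-1 (5.26), the last 3 with the other arrays at the floor. This array also had the highest means of oocyte and eggshell genes.

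The second glp-1 array of 2007 was high for the mean of sperm genes (6.64, others 6.14 to 6.16), the mean of neuronal genes (8.18), spe-15 (7.39) and C54C8.3 (5.29), and low for clec-60 (9.47) and nlp-80 (9.26). The second of 2008 was high for pals-6 (10.62) and mxl-2 (8.59). In N2 the first array of 2007 was low for mtl-1 (5.91), par-1 (6.32) and cyp-35B1 (5.00) and high for F44A2.7 (5.83) and for the mean of oxidative phosphorylation genes (11.07). The second was high for rme-2 (13.19), irg-6 (6.54), spe-26 (6.21) and sygl-1 (5.75) and low for vit-5 (13.93) and atp-2 (12.59).

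The strain difference after UVC changed between years for 751 probe sets, and 19 of the 213 named genes were among those called. In 14 the value in 2008 minus that in 2007 was above 0. All but parg-2 (5.43) of these fell over both years. They were nduf-2.2 (3.95), pos-1 (3.76), clec-87 (3.25), cbd-1 (2.81), rme-2 (2.66), clec-88 (2.54), hil-5 (2.24), cpb-3 (2.22), his-74 (2.08), clec-91 (1.94), tdc-1 (1.87), gld-3 (1.54) and polh-1 (1.5), so that their falls were smaller in 2008. In 5 it was below 0, namely irg-6 (-5.67), F55G11.6 (-5.35), rig-5 (-4.80), cyd-1 (-2.69) and ced-3 (-1.97).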

How the results depend on the processing

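The irradiated comparison gave 8986 called probe sets and between 6780 and 11841 under the alternatives, except for the 2007 arrays alone, with 4525 (1950 higher, 2575 lower). With the deposited values 1480 were higher. With single arrays left out the count was 8124 to 8781 (4026 to 4442 higher, 4098 to 4339 lower). With year and replicate number as a replicate block it was 8932 (4553 higher, 4379 lower). The test of the irradiated against the untreated strain difference called 1 probe set in 2007 alone and 0 otherwise. The year difference of 751 became 835 with the block, 5233 with the deposited values, 9297 with median centring, 6274 with quantile normalization within each year, 408 at log2(value + 1) and 257 to 1889 with single arrays left out. In comparisons added after seeing the data (untreated strains, lists by year, array and scaling, and chromosomes), the untreated count of 8511 was 4296 in 2007 alone and 7661 to 8220 with single arrays left out.

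Signs turned, with a call on either side, for parg-2 (-2.16) and rig-5 (2.39) in 2007 alone, for vit-2 in 2008 alone (0.31) and with array weights (0.24), and with the deposited values for F46C5.1 (-0.094), atx-2 (-0.74), mnat-1 (-1.1) and par-6 (-1.09). Scaling to the 75th percentile turned atp-2 (0.59), eef-1A.1 (0.88), hsp-90 (0.36), rpl-22 (0.70), rpl-4 (0.68), rps-11 (0.97), rps-3A (0.65), ule-3 (1.08), vit-2 (0.91), vit-4 (1.46), vit-5 (1.49) and vit-6 (1.48). The cause was not tested.

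The 2007 arrays were dim, with medians of 4.24 to 8.42, which limits what dim genes can show there. No year has more than 2 arrays per group.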

Other observations

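Genes were also grouped into families by the stem of their names, with 20 or more measured genes each. Those named here were chosen after their values were seen. FMRFamide-like peptide genes (flp), part of the neuropeptide list above, had the largest share that rose, 80% of 25, followed by carboxylesterase genes (cest), 68.8% of 32, and transthyretin-like genes (ttr), 62.5% of 40, and bestrophin channel genes (best) rose in 56.0% of 25. Nuclear pore genes (npp) had the largest share that fell, 92.3% of 26, followed by the mitochondrial ribosomal protein genes mrps (76.0% of 25) and mrpl (67.6% of 34) and by the translation initiation factor genes eif (68.2% of 22). The mitochondrial ribosomal genes thus fell in larger shares than the cytosolic ones (34.7% of 75). Of the chemoreceptor families, whose genes lay near the floor, srh rose in 14 of 232 cases, str in 13 of 177 and srw in 7 of 114, with 0 falling.

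Some gene names carry a number after a dot that marks paralogues. The rule was chosen after the ribosomal pairs had been seen. Of the 269 measured genes with such names, 80 rose and 72 fell. Of the 82 names with any called gene, 12 held both a gene that rose and a gene that fell. Whether 12 is more than such shares of called genes would give was not tested. The largest gap was in the complex III core protein, with ucr-2.2 at 1.32 ± 0.24 and ucr-2.3 at -4.70 ± 0.34, and zinc transporters split likewise, with zipt-7.2 at 0.75 and zipt-7.1 at -3.87. The gene that rose was on the X chromosome in 8 of the 12 names and the gene that fell in 3. By comparison, 13.8% of all measured genes, 22% of all that rose and 3.66% of all that fell were X-linked.

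Most of the brightest called genes moved little. The ranking itself favours this, since a gene bright in 1 strain only has a lower mean. By mean level over the 8 irradiated arrays, the 5 brightest that rose were asp-5 (0.60 ± 0.15), perm-2, C17F4.7 (0.56 ± 0.21), ilys-5 (0.57 ± 0.21) and ctsa-1.1 (1.03 ± 0.15), of which asp-5 is named for an aspartyl protease and ilys-5 for a lysozyme. The 5 brightest that fell were the elongation factor gene eef-1A.1 (-0.25 ± 0.10), the ribosomal protein genes rps-3A (-0.33 ± 0.11), rpl-4 (-0.38 ± 0.14) and rpl-22 (-0.35 ± 0.14) and the chaperone gene hsp-90 (-0.55 ± 0.16). All 5 of these differences changed sign with arrays scaled to the 75th percentile. Of these 10 genes, C17F4.7 lost its call in 14 of 24 alternatives and ilys-5 in 13, and the calls of eef-1A.1, rpl-22, rpl-4 and rps-3A were lost or turned in 18, 15, 14 and 12. Among genes with a mean above 12 over all arrays, the 5 with the smallest differences were the collagen gene sqt-3 (0.00), vit-5 (-0.01), rps-11 (-0.02), vit-2 (-0.02) and ule-3 (-0.04). Dimmer probe sets were at -1.77 for sqt-3 (limma adjusted p = 0.057), 0.56 for ule-3 and 0.14 for rps-11, and none passed.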
